A study of Mus musculus with 25 samples.

Results

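DNA repair and damage checkpoint genes were followed as a set of 47 genes, chosen by name with earlier results of these data known, out of 17591 genes with introns measured in these tumors. Cells repair double-strand breaks by copying an intact sister chromatid (homologous recombination, carried out by Brca1, Brca2 and their partners) or by joining the ends directly, and they repair damaged bases, mismatches and bulky adducts by separate excision pathways. Checkpoint kinases such as Atm, Atr, Chek1 and Chek2 halt the cell cycle while repair goes on. Loss of homologous recombination is a known feature of many triple-negative breast cancers and underlies their sensitivity to inhibitors of Parp1 and Parp2, and several of these genes are long, with many introns.

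Tumors of 4 engineered mouse models of triple-negative breast cancer were grown in the mammary glands of females aged 4 to 5 weeks at transplant, and the mice received H3B-8800 or vehicle daily before the tumors were taken. H3B-8800 is a splicing modulator taken by mouth, whose target is SF3B, the complex that finds the branch point of an intron. The T11 and 2208L tumors grew in Balb/c mice, with 3 libraries labelled H3B-8800 and 3 labelled vehicle in each model, and the PyMT-M and AT3 tumors grew in C57BL/6 mice, with 4 and 4 libraries in PyMT-M and 2 and 3 in AT3. By the labels, PyMT-M and 2208L respond to the drug, T11 and AT3 do not, and the labels give no tumor genotype, dose or number of days. The tumors are transplants from a small number of lines into mice that keep their own immune cells and stroma.

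The deposited files count, for each intron, the reads inside it and the reads that overlap it. The second count less the first was taken as the spliced reads of the intron. The counting tool is not given, so unspliced reads across an edge of the intron may be among them. A gene's level is the sum of its spliced reads over its introns, in CPM, spliced reads scaled to library size. The percent in an intron is the intronic reads over the intronic plus spliced reads. It is not adjusted for intron length and is not a percent of transcripts. The libraries held 9820825 to 19700955 spliced reads and 858362 to 5684308 intronic reads. The share of all reads inside introns was 17.8% to 27.8% with H3B-8800 and 10.5% to 20% with vehicle in PyMT-M, 14.2% to 20.4% and 9.63% to 15.9% in AT3, and 13.3% to 14.9% and 7.90% to 10.4% in 2208L. T11 libraries labelled H3B-8800 held 9.33% to 11.96% and those labelled vehicle 11.5% to 18.1%. T11 thus ran, with a slight overlap, against its labels, and each T11 direction below is given as labelled. Epithelial keratins, Epcam and Cdh1 summed to 3915 to 6384 CPM in PyMT-M and 3069 to 4634 CPM in 2208L, but to only 98.6 to 272 CPM in T11 and 158 to 500 CPM in AT3. In skeletal muscle or B cell markers, 9 libraries exceeded 10 times the median over libraries. All 3 H3B-8800 libraries of 2208L were among them, for B cell markers (34.9 to 53.0 CPM, beside 2.41 to 5.04 CPM with vehicle), and were kept, since leaving them out would remove that whole group. The other 6 stood apart within their groups (PyMT-M H3B-8800 replicates 1 and 2, 2208L vehicle replicate 1, AT3 vehicle replicate 2, T11 labelled H3B-8800 replicate 2 and T11 labelled vehicle replicate 3), and the counts that lead each section are also given without them. Those fits also hold fewer libraries, so smaller groups and marker content cannot be told apart in a lost call. In whole tumors, fewer cells of a type and less RNA per cell cannot be told apart.

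Introns of DNA repair genes held a larger share of reads under H3B-8800 in PyMT-M, AT3 and 2208L. Of the members' 1002 introns, 285 in 41 genes had enough reads to be tested. In PyMT-M, 152 of the 285 were called higher and 7 lower (edgeR quasi-likelihood test, adjusted p under 0.05), where 54.6% of all 52042 tested introns were higher and 5.56% lower. In AT3, 50 were higher and 3 lower (19.8% and 0.302% of all introns), and in 2208L 62 were higher and 2 lower (21.2% and 0.511%). In T11 as labelled, 4 were higher and 57 lower (0.719% and 20%). The median log2 change of the members' introns was 1.65 in PyMT-M, 1.04 in AT3, 1.13 in 2208L and -0.86 in T11, beside 1.57, 1.10, 1.07 and -0.84 over all introns tested, so the members moved about as much as introns at large. Without the 6 libraries set apart above, the members' called introns were 99 in PyMT-M, 44 in AT3, 17 in 2208L and 30 in T11. Leaving out AT3 H3B-8800 replicate 2, AT3 vehicle replicate 1 or AT3 vehicle replicate 3 brought the 53 calls of AT3 to 15, 27 and 33. Leaving out 2208L vehicle replicate 1, 2208L vehicle replicate 3 or 2208L H3B-8800 replicate 1 brought the 64 calls of 2208L to 24, 41 and 36, and leaving out T11 labelled vehicle replicate 2 brought the 61 calls of T11 to 32.

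The affected introns were spread unevenly over the members in PyMT-M. All 20 tested introns of Ercc2, the XPD helicase of nucleotide excision repair, were higher, as were 15 of 16 introns of Lig3, the DNA ligase that seals single-strand breaks and also serves mitochondria. Ddb1, which recognises ultraviolet lesions as part of a ubiquitin ligase, had 12 of 17 introns higher, and Rev1, a translesion polymerase, 10 of 15. Ercc3, the XPB helicase, had 9 of 12, Ercc5, the XPG nuclease, 8 of 10, Topbp1, the activator of Atr, 8 of 10, and Mre11a, the break-end nuclease, 6 of 7. None of the 8 tested introns of Xrcc6, the 5 of Xrcc5 (the Ku subunits of end joining) or the 6 of Atr was called higher there. By role, 52 of 68 introns of nucleotide excision genes were higher, 30 of 51 of base excision and single-strand break genes, 31 of 62 of break sensing and checkpoint genes, 25 of 48 of translesion genes, 7 of 16 of strand exchange and helicase genes, 6 of 11 of mismatch genes, 1 of 14 of Fanconi genes, and none of 15 of end joining genes, whose median log2 change was -0.30. Of the 14 Fanconi introns, 13 had a positive change in PyMT-M, with a median log2 change of 0.82. Of all 52042 tested introns, 42312 had a positive change there and 54.6% were called higher. In 2208L, 3 of the 15 end joining introns were higher, beside 21.2% of all introns. Introns of 1 gene share its spliced reads and are not independent. Ercc2 alone held 20 of the 52 nucleotide excision introns called higher in PyMT-M, and Lig3 15 of the 30 of its role. Roles were not tested against each other.

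Short introns of members can be shown with their sequence where an annotated transcript reads through them, and 17 introns of members have one (mm10, GENCODE M21 transcripts). The 4 that span 130 bases or less are shown to compare introns that lay close in length and ended in the same signals but moved unequally. Intron 19 of Ercc2 (chr7:19393506-19393629, plus strand) and intron 20 of the same gene (chr7:19393701-19393775) went up in PyMT-M, as did intron 5 of Xrcc1 (chr7:24566294-24566388, plus strand). Intron 24 of Ddb1 (chr19:10627659-10627761, plus strand) was well covered, with 402 to 1154 reads per library. Its percent was low in every group, with means of 0.795% to 3.65%. Capitals mark the first 2 and last 2 bases of the intron, GT and AG in all 17.
Ercc2 intron 19: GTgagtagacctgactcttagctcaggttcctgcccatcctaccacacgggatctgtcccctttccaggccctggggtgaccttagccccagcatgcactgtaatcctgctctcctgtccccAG
Ercc2 intron 20: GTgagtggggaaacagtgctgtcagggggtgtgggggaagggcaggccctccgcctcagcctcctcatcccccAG
Xrcc1 intron 5: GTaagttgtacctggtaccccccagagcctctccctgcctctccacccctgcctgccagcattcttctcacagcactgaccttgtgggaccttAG
Ddb1 intron 24: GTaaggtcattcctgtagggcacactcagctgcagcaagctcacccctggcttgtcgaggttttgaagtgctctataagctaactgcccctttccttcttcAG

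Ercc2 intron 19, of 124 bases, went from 12.8% ± 3.32 (SD, n = 4) with vehicle to 71.8% ± 6.29 (n = 4) with H3B-8800 in PyMT-M (log2 change of its reads relative to the gene's spliced reads 3.14, edgeR adjusted p = 6.25e-07). It holds an annotated exon of another transcript, which can add reads, and its reading frame reaches a stop codon at base 6. Ercc2 intron 20, of 75 bases, went from 14.3% ± 5.18 to 47.5% ± 9.96 (log2 change 2.36, adjusted p = 7.5e-05), and Xrcc1 intron 5, of 95 bases, from a mean of 8.91% to 24.5% (log2 change 1.72, adjusted p = 0.0233). Ddb1 intron 24, of 103 bases, read 2.31% ± 0.547 with vehicle and 2.68% ± 1.13 with H3B-8800 (log2 change 0.03, SE 0.64, adjusted p = 0.969), with at least 481 reads in every PyMT-M library. Of the 20 bases before the final AG, 17 were pyrimidines in Ddb1 intron 24 and in Ercc2 intron 20, 16 in Ercc2 intron 19 and 12 in Xrcc1 intron 5. These are 4 introns picked by the availability of sequence, and nothing was tested on their letters.

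Longer introns are shown by their last 60 bases, where the branch point region and the polypyrimidine stretch lie, for introns of Lig3, Parp2 and Xpc that rose and for intron 7 of Primpol, the repriming primase, which moved down. Capitals mark the final AG.
Lig3 intron 10, chr11:82795649-82795708, plus strand: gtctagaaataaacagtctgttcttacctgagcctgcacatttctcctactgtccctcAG
Parp2 intron 6, chr14:50816137-50816196, plus strand: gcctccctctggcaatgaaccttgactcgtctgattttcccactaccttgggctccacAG
Xpc intron 10, chr6:91496170-91496229, minus strand: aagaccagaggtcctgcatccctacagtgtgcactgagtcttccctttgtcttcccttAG
Primpol intron 7, chr8:46592756-46592815, minus strand: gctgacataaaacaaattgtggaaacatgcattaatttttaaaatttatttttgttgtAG

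Lig3 intron 10, of 256 bases and with an annotated exon inside, rose from a mean of 19.6% to 57.01% in PyMT-M (log2 change 2.11). Parp2 intron 6, of 769 bases in the gene of the second break-sensing poly(ADP-ribose) polymerase, read 20.6%, 8.70%, 20.3% and 7.84% in the 4 vehicle libraries and 46.7%, 52.8%, 40.5% and 53.97% in the 4 H3B-8800 libraries, with no overlap (log2 change 2.49, SE 0.68, adjusted p = 0.00222). It passed the test in no other model. Xpc intron 10, in the gene of the lesion sensor of global nucleotide excision repair, rose from a mean of 49.9% to 82.0% (log2 change 2.08). Primpol intron 7 ran the other way, from 84.1% ± 15.4 to 23.0% ± 17.7 (n = 4 and 4, log2 change -2.44, adjusted p = 0.0186), on 5 to 50 reads per library, and it lost its call when PyMT-M H3B-8800 replicate 2 or 3 was left out.

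In all, 30 introns of 13 members were called higher in PyMT-M, AT3 and 2208L alike, 10.5% of the members' tested introns beside 10.96% of all tested introns. Lig3 held 7 of them, Ercc2 5, Ercc3 4, Ddb1 3 and Rev1 3, with 1 each in Brca1, Blm, Parp1, Trp53bp1, Mdc1, Rev3l, Polh and Polk. No annotated exon lies inside 20 of the 30. Every one of the 30 had a negative change in T11 as labelled, and 24 of them were called lower there. Of all 52042 tested introns, 38981 had a negative change in T11 as labelled and 20% were called lower. These T11 counts were not made over the 5705 introns of all genes called higher in the 3 models, so they describe the 30 only.

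Intron 20 of Brca1, the tumor suppressor that starts strand exchange (chr11:101492255-101493551, minus strand), read 21.1%, 44.4%, 0% and 0% in the 4 PyMT-M vehicle libraries and 100%, 92.3%, 94.1% and 90% in the 4 H3B-8800 libraries. The groups did not overlap (log2 change 5.05, SE 0.78, edgeR adjusted p = 2.15e-06). These percents rest on few reads, 6 to 19 per PyMT-M vehicle library and 13 to 40 per PyMT-M H3B-8800 library. It was also higher in AT3, from 25.5% ± 11.4 (n = 3) to 74.5% ± 17.02 (n = 2), and in 2208L, from 21.9% ± 14.4 to 68.9% ± 8.44 (n = 3 and 3, adjusted p = 0.0178, lost without 2208L vehicle replicate 1, 2208L vehicle replicate 2 or 2208L H3B-8800 replicate 3). In T11 it stood at 75%, 61.4% and 59.6% where the label was vehicle and, where it was H3B-8800, at 0%, 4.65% and 18.2%. Brca1 intron 20 was thus high in the H3B-8800 libraries of 3 models and in the T11 libraries labelled vehicle.

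Intron 3 of Lig3 (chr11:82788916-82789546, plus strand) stood at 14.2%, 5.51%, 14.7% and 12.4% with vehicle and 72.8%, 65.0%, 66.2% and 71.5% with H3B-8800 in PyMT-M (log2 change 4.30, SE 0.52, adjusted p = 4.25e-08). AT3 rose from 15.7% ± 11.5 to 74.2% ± 18.04, and 2208L from 15.3% ± 4.17 to 57.8% ± 13.3. With T11 labels it stood at 78.6% ± 1.43 for vehicle and 25.8% ± 20.01 for H3B-8800. Intron 5 of Ercc2 (chr7:19384416-19385622, plus strand) went from 10.7% ± 4.79 to 77.8% ± 7.63 in PyMT-M (log2 change 5.63, adjusted p = 7.36e-09). Means in AT3 were 6.88% ± 6.01 and 53.1% ± 4.42, and in 2208L 5.13% ± 8.88 and 48.3% ± 6.60. Intron 7 of Ercc3 read 9.49% ± 4.88 with vehicle and 85.4% ± 2.28 with H3B-8800 in PyMT-M (log2 change 5.71, adjusted p = 1.07e-08). In 2208L that intron had no intronic read in any of the 3 vehicle libraries and 54.2%, 38.5% and 48.4% in the H3B-8800 libraries, so that no fold is given. The groups of each of these 3 introns stood apart in all 4 models, but PyMT-M, AT3 and 2208L served to choose the introns.

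The 10 introns named by the rule, the Brca1, Lig3, Ercc2 and Ercc3 introns above among them, were taken from introns called higher in PyMT-M, AT3 and 2208L. They were ranked by the mean rise of the percent, so their rise in these models was set by the choice. Rev1 intron 13 went from 26.2% ± 9.91 to 93.0% ± 2.46 in PyMT-M. Mean percents rose from 11.8% to 73.7% in Mdc1 intron 9, in the gene of the scaffold that reads phosphorylated histone H2AX, from 26.1% to 84.3% in intron 1 of Polh, the polymerase that copies past thymine dimers, and from 32.5% to 84.3% in intron 6 of Polk, another translesion polymerase. Of these, Mdc1 intron 9 rested on only 5 to 17 reads per PyMT-M vehicle library and 11 to 30 with H3B-8800. Ercc2 intron 4 rose from 10.8% to 80.6%. Ddb1 intron 18 rose from 6.35% to 49.1% on 424 to 1244 reads per PyMT-M library, the best covered of the 10. All 10 introns kept their calls in PyMT-M when any 1 library was left out, 4 of 10 did so in AT3, 5 of 10 in 2208L and 7 of 10 (as lower) in T11.

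**Figure D1:**
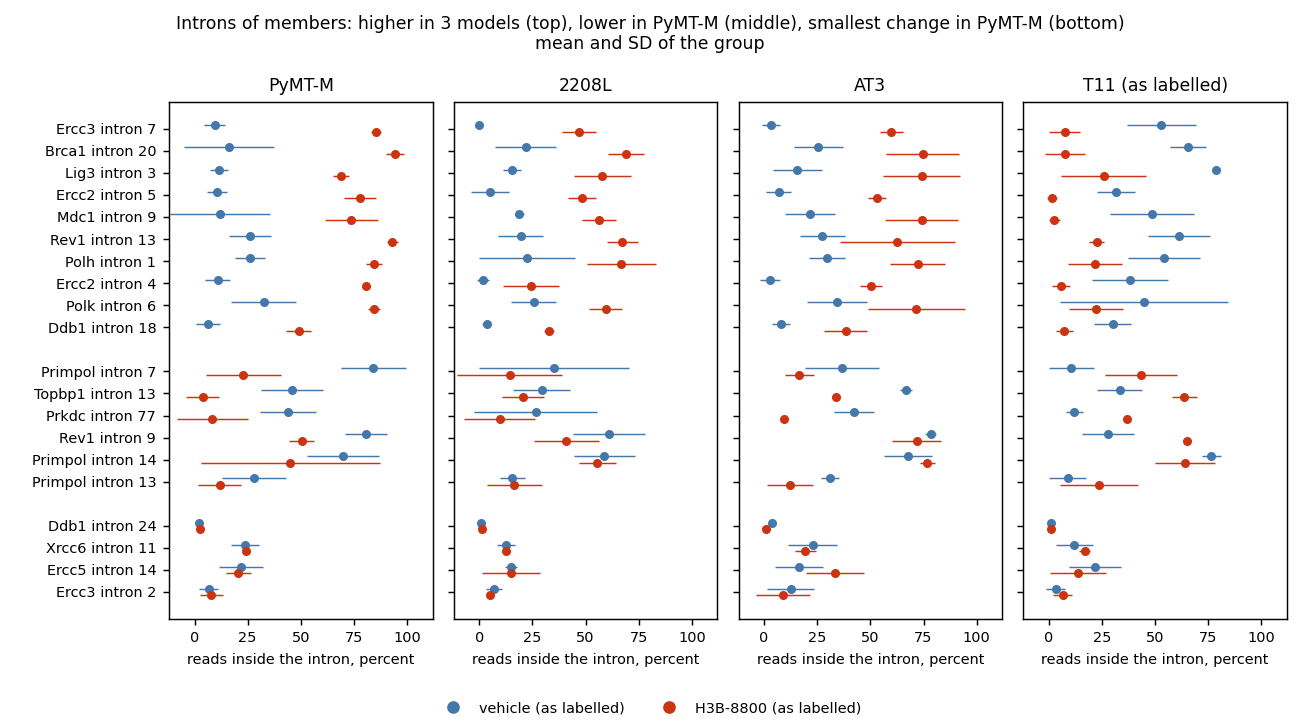
Percent of reads inside 20 introns of members, with 1 panel per model: 10 higher in PyMT-M, AT3 and 2208L (top), 6 lower in PyMT-M (middle) and the 4 well covered ones with the smallest change in PyMT-M (bottom). Points are the means of the libraries of a group, coloured by label, and bars their SD. The 10 at the top were chosen for moving right with H3B-8800 in 3 models, as Ercc2 intron 5 does from 10.7% to 77.8% in PyMT-M. They move left in T11 as labelled.

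Of the introns that were lower in PyMT-M, intron 13 of Topbp1, which holds an annotated exon, stood at 58.3%, 31.8%, 58.9% and 34.6% with vehicle and at 0%, 0%, 0% and 15.2% with H3B-8800 (log2 change -4.02, SE 0.71, adjusted p = 1.43e-05). It was also lower in AT3 (66.7% ± 3.03 to 33.7% ± 0.0962, adjusted p = 0.0329, lost when any 1 AT3 library was left out) and was higher in T11 as labelled (33.4% to 63.8%), a call lost without labelled vehicle replicate 2 or 3 or labelled H3B-8800 replicate 2 or 3. Rev1 intron 9, which also holds an exon, fell from a mean of 80.7% to 50.5% in PyMT-M (log2 change -1.96). It was called lower in AT3 and 2208L too, by log2 changes of -1.89 and -1.85 relative to the gene's spliced reads. Its percent in AT3 moved little, from 78.3% ± 2.49 to 71.8% ± 11.6, on 11 to 25 reads per H3B-8800 library. In 2208L it went from 61.0% ± 16.8 to 40.9% ± 15.3. The AT3 call was lost without AT3 vehicle replicate 1 or AT3 H3B-8800 replicate 1. The 2208L call was lost without 2208L vehicle replicate 2, 2208L H3B-8800 replicate 1 or 2208L H3B-8800 replicate 3. Intron 77 of Prkdc, the kinase of end joining, fell from 43.9% ± 13.2 to 8.33% ± 16.7 in PyMT-M (log2 change -2.998, adjusted p = 0.0112). It held 19 to 26 reads per PyMT-M vehicle library and 7 to 12 with H3B-8800. The last named introns on this side, Primpol 14 and Primpol 13, went from means of 69.7% to 45.0% and 28.0% to 11.9%, and the call of Primpol 13 was lost without PyMT-M vehicle replicate 1 or 3 or PyMT-M H3B-8800 replicate 1, 3 or 4. Primpol 14 rested on 4 to 10 reads per PyMT-M H3B-8800 library, with an SD of 42.0. Its means in AT3 were 67.7% with vehicle and 76.7% with H3B-8800, without a call. Next to Ddb1 intron 24, the well covered introns with the smallest change were Xrcc6 intron 11 (23.8% and 24.2%), Ercc5 intron 14 (21.8% and 20.6%) and Ercc3 intron 2 (6.63% and 7.83%, vehicle and H3B-8800 means).

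Among members' introns of at most 120 bases, 14 of 16 (87.5%) were higher in PyMT-M, beside 78.0% of all tested introns of that length. The share was 41 of 62 (66.1%) above 300 and up to 1000 bases, 65 of 118 (55.1%) above 1000 and up to 3000 bases and 23 of 73 (31.5%) above 3000 bases, beside 66.6%, 58.8% and 32.8% of all introns. The class above 120 and up to 300 bases had 9 of 16, beside 71.3% of all. Across the 285 introns, Spearman's rho between log2 change and log length was -0.37 in PyMT-M, -0.20 in AT3, -0.19 in 2208L and 0.33 in T11. Introns of 1 gene share its spliced reads, and long introns gather more intronic reads in every library, so these values are descriptions.

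Summed over a gene's introns without an annotated exon, 42 members had enough intronic reads to be tested (Brca2, Fancc, Lig4, Xpa and Xrcc2 did not). Of these, 28 were higher with H3B-8800 in PyMT-M (63.6% of all 9547 genes tested), 14 in AT3 (34.2%) and 10 in 2208L (32.7%), and 13 were lower in T11 as labelled (29.9%). The median log2 changes were 1.51, 1.12, 0.87 and -0.97, beside 1.49, 1.14, 1.02 and -0.90 over all genes. The change was positive in PyMT-M, AT3 and 2208L for 35 of the 42, and 7 members were called in all 3: Brca1, Mdc1, Lig3, Ercc2, Ddb1, Rev1 and Polh. All 13 members lower in T11 were among those higher in PyMT-M, and 14 were called in no model. Of all 9547 genes, 8357 had a positive change in PyMT-M, 8435 in AT3 and 8348 in 2208L. The counts shared between models were not made over all genes, so they describe the members only. Without the 6 libraries set apart, 24 were called in PyMT-M, 20 in AT3, 5 in 2208L and 6 in T11. Leaving out 1 library gave 24 to 30 calls in PyMT-M. In AT3 it left 2 calls without H3B-8800 replicate 2, 4 without vehicle replicate 1 and 5 without vehicle replicate 3, and Lig3 and Mdc1 were the 2 members called in every such fit. In 2208L the fewest were 5, without vehicle replicate 1, and T11 kept 3 calls if labelled vehicle replicate 2 was dropped, 4 if labelled H3B-8800 replicate 1 was, and 6 if labelled H3B-8800 replicate 2 was.

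Lig3 had the largest of these changes in PyMT-M. Its pooled percent was 6.61%, 2.73%, 6.54% and 6.08% in the vehicle libraries and 53.9%, 47.6%, 47.9% and 51.1% in the H3B-8800 libraries (log2 change 4.11, SE 0.40, edgeR adjusted p = 7.04e-10). In AT3 it was 4.24%, 5.88% and 1.74% against 19.9% and 33.6%, and in 2208L 2.09%, 3.58% and 3.88% against 26.7%, 17.2% and 21.6%. No group overlapped its control. In T11 it was 26.5%, 43.2% and 36.9% under the vehicle label and 6.56%, 4.19% and 6.03% under the H3B-8800 label (log2 change -3.27). Ercc2 stood at 51.3% ± 7.72 against 8.38% ± 2.12 in PyMT-M (log2 change 3.57), 20.3% ± 1.84 in 2208L against a vehicle mean of 2.98% (log2 change 3.04), and its log2 change was -3.11 in T11 as labelled.

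Brca1 pooled over its introns went from 12.4%, 7.95%, 10.1% and 18.2% to 56.0%, 54.1%, 51.4% and 46.3% in PyMT-M (log2 change 2.93, adjusted p = 5.35e-07). In AT3 it went from 12.9%, 23.1% and 16.8% to 36.4% and 36.7%, and in 2208L from 4.61%, 11.7% and 12.4% to 25.3%, 15.1% and 24.8%. The groups of Brca1 did not overlap in any of these models. Its log2 change was 1.41 in AT3 and 1.38 in 2208L, and the difference from PyMT-M passed the test in neither case. Rad54l, the motor protein of strand exchange, rose from a mean of 5.73% to 45.7% in PyMT-M (log2 change 3.81), and Palb2, which bridges Brca1 and Brca2, from 73.5% to 95.2% on few spliced reads (log2 change 3.58).

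Msh6, a mismatch recognition subunit, was the member whose pooled change differed between models. In PyMT-M it went from 3.98%, 1.36%, 3.48% and 9.05% to 52.1%, 26.2%, 33.9% and 36.8% (log2 change 3.69, adjusted p = 2.72e-07), and in AT3 from 3.32%, 7.89% and 6.01% to 14.2% and 32.2% (log2 change 2.38). In 2208L it read 3.75%, 5.45% and 5.33% with vehicle and 5.98%, 5.31% and 7.89% with H3B-8800, groups that overlapped (log2 change 0.43, adjusted p = 0.551). The log2 change in PyMT-M minus that in 2208L was 3.26, SE 0.74, with an adjusted p of 0.0268, in a comparison where 0.545% of all genes were called. That call was lost in 7 of 14 fits that left out 1 library (PyMT-M vehicle replicate 2, PyMT-M H3B-8800 replicate 1, and each 2208L library but vehicle replicate 1) and without the 6 libraries. No member passed the same test for PyMT-M minus AT3, where edgeR called 0% of all genes and 3 members had an unadjusted p under 0.05. Members whose pooled percent was not called in PyMT-M included Xrcc5 (14.8% with vehicle, 13.1% with H3B-8800, log2 change -0.24), Xrcc6 (0.24), Prkdc (0.12), Atr (-0.04), Chek2 (0.40) and Lig1 (0.60).

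**Figure D2:**
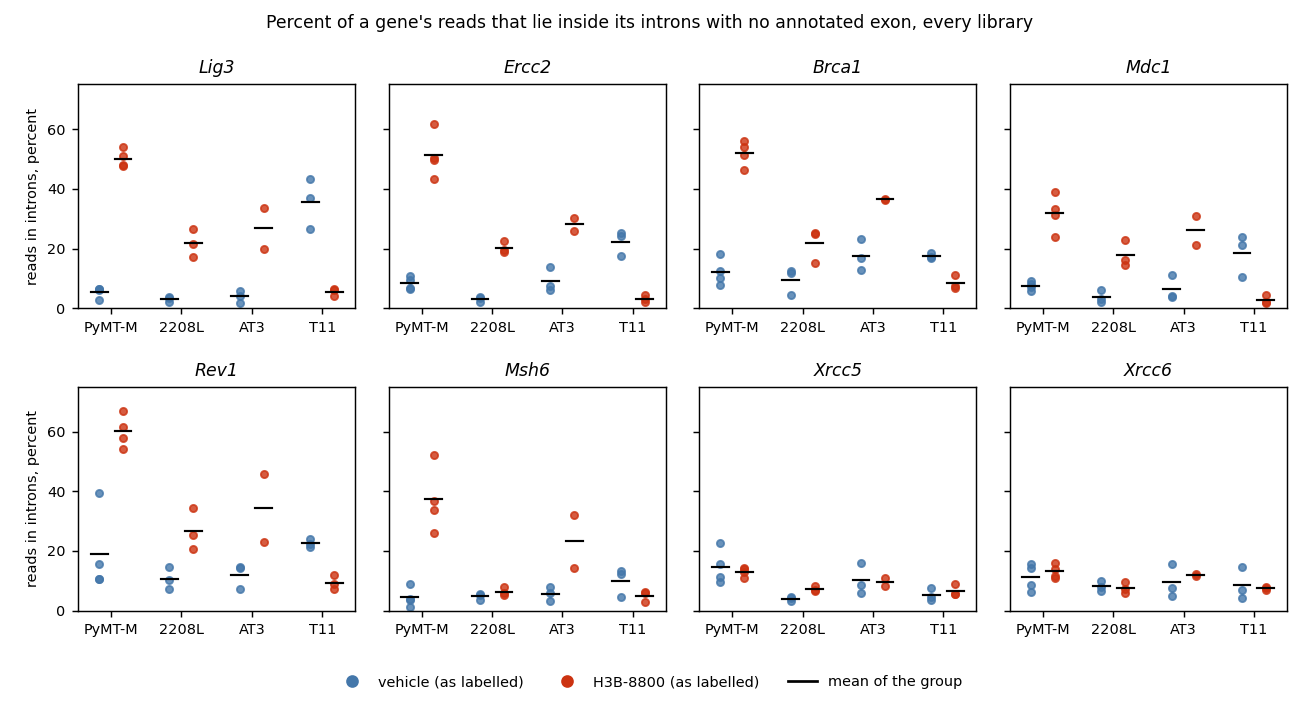
Percent of reads inside introns, pooled over each member's introns without an annotated exon, by library and model, for 8 members. Points are single libraries, coloured by label, and lines the group means. Lig3 reads 2.73% to 6.61% with vehicle and 47.6% to 53.9% with H3B-8800 in PyMT-M, while Msh6 in 2208L reads 3.75% to 5.45% and 5.31% to 7.89%.

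At the level of spliced reads, 20 of the 47 DNA repair genes were lower with H3B-8800 in PyMT-M and 8 in 2208L. All 47 members passed the filter on low counts. In PyMT-M none was higher beside these 20, where 14.6% of all 13001 genes tested were lower and 10.2% higher (edgeR, adjusted p under 0.05, 27 members lower and 0 higher at an unadjusted p under 0.05, and 21 lower with DESeq2). The median log2 change of the members was -0.47, beside 0.02 over all genes, and 43 of 47 were negative, beside 6238 of all 13001 genes. In 2208L none was higher beside the 8 (5.67% and 4.67% of all genes, 14 lower at an unadjusted p under 0.05, 9 lower with DESeq2). The median there was -0.37 beside 0, and 42 members were negative, beside 6412 of all 13001 genes. The change was negative in PyMT-M, AT3 and 2208L for 25 members and positive in all 3 for none. Xrcc1, Lig3, Fanci and Pms2 were lower in both PyMT-M and 2208L. These counts shared between models were not made over all genes, so they describe the members only.

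Other gene groups differed between the same libraries. Summed proliferation genes (15 genes, among them Mki67 and Top2a) ran from 732 to 1333 CPM with vehicle and from 454 to 1080 CPM with H3B-8800 in PyMT-M, and from 2363 to 2804 and 1716 to 2395 CPM in 2208L. In PyMT-M 7 of the 15 were lower (14.6% of all genes) and 8 were not called, with a median of -0.48. The lower ones were led by Aurkb (log2 change -1.499), Mki67 (-1.41) and Top2a (-1.26), each with overlapping groups. Mcm2 (0.03), Mcm3 (0.02) and Pcna (-0.05) were among those not called. Pooled intron reads of all 14 tested proliferation genes were higher in PyMT-M (63.6% of all genes), with a median log2 change of 2.76. The sum of 6 macrophage markers ran from 104 to 292 CPM with vehicle and 441 to 675 CPM with H3B-8800 in PyMT-M, and from 154 to 647 and 1134 to 1297 CPM in 2208L. The sum of 6 fibroblast markers ran from 1389 to 3956 CPM with vehicle and 2998 to 5438 CPM with H3B-8800 in PyMT-M. In 2208L, the 6 B and plasma cell markers summed to 2.41 to 5.04 CPM with vehicle and 34.9 to 53.0 CPM with H3B-8800. The macrophage sums of vehicle and H3B-8800 libraries did not overlap in either model, and neither did the B cell sums in 2208L. The part of these in the members' changes was not tested. Without the 6 libraries set apart, 6 members stayed lower in PyMT-M (Brca1 -1.09, Brca2 -2.11, Xrcc1 -0.94, Parp2 -0.95, Xpc -0.74, Ercc5 -0.71) and none in 2208L. That fit lacks PyMT-M H3B-8800 replicates 1 and 2, and the part of the smaller groups in the lost calls was not tested.

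The strand exchange and helicase genes held the largest changes in PyMT-M, with 6 of 9 lower and a median log2 change of -1.22. Brca1 stood at 11.999, 10.5, 8.71 and 14.3 CPM with vehicle and 3.93, 2.08, 3.30 and 7.03 CPM with H3B-8800 (log2 change -1.48, SE 0.28, edgeR adjusted p = 0.000788). Brca2, a tumor suppressor of homologous recombination, stood at 4.63, 4.03, 3.29 and 5.10 CPM with vehicle and 1.09, 1.27, 0.393 and 1.496 CPM with H3B-8800 (log2 change -1.99, SE 0.32, adjusted p = 0.000188). Blm, the helicase mutated in Bloom syndrome, stood at 10.2, 9.30, 8.64 and 13.8 CPM against 3.49, 2.61, 3.46 and 8.38 CPM (log2 change -1.22, adjusted p = 0.00184). In each of the 3 genes every H3B-8800 library lay below every vehicle library, and H3B-8800 replicate 4 was the highest of its group. Palb2 (-1.96, 0.533 ± 0.460 against 2.10 ± 0.576 CPM), Xrcc2, which acts in strand exchange (-1.93, 0.219 ± 0.135 against 0.863 ± 0.0850 CPM), and Bard1, the partner of Brca1 (-0.98, adjusted p = 0.0302, groups overlapping), were also lower, at levels of at most a few CPM. Wrn, the Werner syndrome helicase, had a log2 change of -0.62 that missed the threshold (adjusted p = 0.0604), as did Rad54l (-0.42).

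None of these 9 genes passed the test in 2208L or AT3. In 2208L Brca1 stood at 38.8, 32.7 and 38.6 CPM with vehicle and 16.1, 27.3 and 17.2 CPM with H3B-8800 (log2 change -0.86, adjusted p = 0.0751), and the log2 change of Brca2 was -0.82 (adjusted p = 0.122). In AT3 Brca1 stood at 41.2, 38.6 and 37.2 CPM with vehicle and 26.9 and 25.8 CPM with H3B-8800 (-0.57, adjusted p = 0.522), and Brca2 at 17.8, 24.9 and 18.3 CPM against 14.1 and 11.2 CPM (-0.69, adjusted p = 0.456). The Brca1 groups lay apart in both models, although the change passed in neither. The change of Brca2 in PyMT-M minus that in AT3 was -1.30 (adjusted p = 0.191) and minus that in 2208L -1.16 (adjusted p = 0.204), and for Brca1 -0.91 (0.317) and -0.62 (0.484), so a difference between models was not shown.

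**Figure D3:**
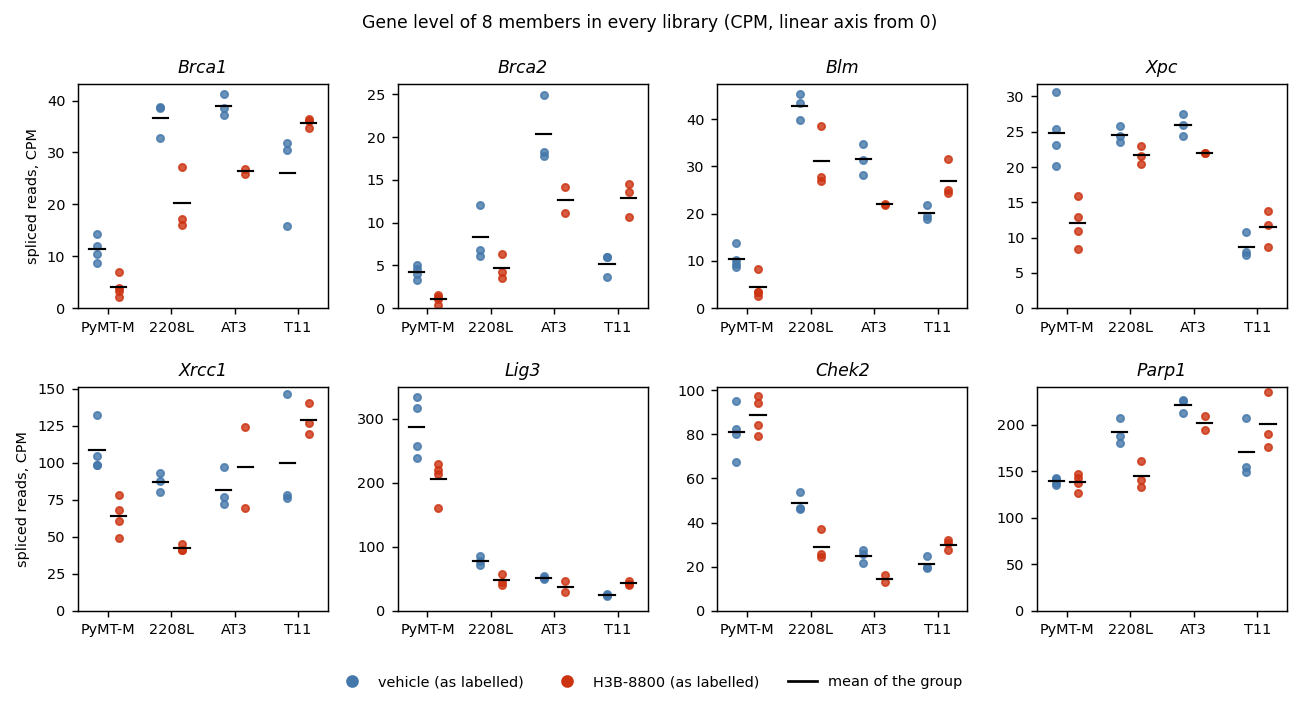
Gene level in CPM of spliced reads, by library and model, for 8 members, on linear axes that start at 0. Points are single libraries, coloured by label, and lines the group means. Brca1 reads 8.71 to 14.3 CPM with vehicle and 2.08 to 7.03 CPM with H3B-8800 in PyMT-M, and Xrcc1 80.1 to 93.3 and 40.8 to 45.1 CPM in 2208L.

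Among the base excision and single-strand break genes, 3 of 5 were lower in PyMT-M and 4 of 5 in 2208L. Xrcc1, the scaffold that holds Lig3 and the polymerase at a nick, stood at 98.7, 98.2, 104 and 133 CPM with vehicle and 78.3, 67.8, 49.2 and 60.6 CPM with H3B-8800 in PyMT-M (log2 change -0.76, adjusted p = 0.0089). In 2208L it stood at 93.3, 80.1 and 87.4 CPM with vehicle and 40.8, 41.2 and 45.1 CPM with H3B-8800 (-1.04, SE 0.23, adjusted p = 0.00901). It was the 1 member of the 8 lower in 2208L that stayed called when any 1 library was left out. Lig3 stood at 317, 257, 335 and 238 CPM against 214, 221, 229 and 160 CPM in PyMT-M (-0.48, adjusted p = 0.0248), and at 77.9, 70.9 and 85.5 CPM against 40.2, 57.7 and 44.9 CPM in 2208L (-0.71, adjusted p = 0.0145). With intronic reads counted as well, the log2 change of Lig3 in PyMT-M was 0.083, and its call in spliced reads was lost without PyMT-M vehicle replicate 1, vehicle replicate 3 or H3B-8800 replicate 4. Lig1, the replicative ligase, went from 146, 138 and 154 CPM to 84.9, 92.6 and 85.6 CPM in 2208L (-0.74, adjusted p = 0.0275). Parp2 went from 60.8, 57.7, 47.6 and 89.1 CPM to 34.0, 30.6, 23.0 and 40.9 CPM in PyMT-M (-0.99, SE 0.18, adjusted p = 0.000622). Parp1, the main break-sensing poly(ADP-ribose) polymerase, had means of 139 CPM with vehicle and 138 CPM with H3B-8800 in PyMT-M (-0.01) and was lower in 2208L (-0.41, adjusted p = 0.0496).

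Among the nucleotide excision genes, 4 of 7 were lower in PyMT-M and none in 2208L. Xpc stood at 30.6, 25.4, 23.1 and 20.2 CPM with vehicle and 8.36, 10.99, 13.0 and 15.9 CPM with H3B-8800, with no overlap (-1.04, SE 0.19, adjusted p = 0.000456). Ercc5 went from 61.5 ± 11.7 to 33.3 ± 3.73 CPM (-0.89, adjusted p = 0.000577). Ddb2, the subunit that pairs with Ddb1 on ultraviolet lesions, went from 17.1 ± 5.92 to 8.56 ± 1.49 CPM with overlapping groups (-0.9998, adjusted p = 0.0216), and Xpa, the scaffold of the incision complex, had a log2 change of -0.60. Ercc2, with the most affected introns, had a log2 change of -0.22 in spliced reads (adjusted p = 0.382).

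In the break sensing and checkpoint group, 2 of 10 were lower in PyMT-M: Mdc1 (-0.90, 7.53 ± 1.74 against 14.1 ± 2.28 CPM) and Topbp1 (-0.65). The kinases did not pass the test there, with log2 changes of -0.16 for Atm, 0.12 for Atr and -0.42 for Chek1. Chek2, the kinase downstream of Atm, stood at 80.0, 82.2, 95.2 and 67.5 CPM with vehicle and 94.3, 84.4, 97.4 and 79.3 CPM with H3B-8800 in PyMT-M, overlapping groups. In 2208L it went from 46.7, 45.9 and 53.99 CPM to 24.3, 37.0 and 25.8 CPM, without overlap (-0.75, SE 0.17, adjusted p = 0.00900), and in AT3 from 27.4, 21.7 and 25.6 CPM to 16.0 and 13.1 CPM (-0.78, adjusted p = 0.0883). Its change in PyMT-M minus that in 2208L was 0.88, SE 0.22, adjusted p = 0.0453, the 1 member called in a comparison that called 1.92% of all genes. That call held in 4 of 14 fits that left out 1 library (PyMT-M vehicle replicate 3, PyMT-M H3B-8800 replicate 4, 2208L vehicle replicate 2 and 2208L H3B-8800 replicate 2) and was lost in the other 10, and leaving out PyMT-M H3B-8800 replicate 4 raised the count of members called to 4. For PyMT-M minus AT3, edgeR called no member (1.1% of all genes, 1 member higher and 7 lower at an unadjusted p under 0.05, 1 with DESeq2), and the count became 2 without PyMT-M H3B-8800 replicate 4 and 1 without PyMT-M vehicle replicate 3 or AT3 H3B-8800 replicate 2.

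In the Fanconi group, which unhooks cross-linked strands, Fanca (-0.61) and Fanci (-0.60) were lower in PyMT-M with overlapping groups, and Fanci in 2208L, from 26.2, 20.3 and 24.5 CPM to 11.3, 16.2 and 11.8 CPM (-0.86, adjusted p = 0.0188). Fancd2, the partner of Fanci, had a log2 change of -0.30 in PyMT-M, where H3B-8800 replicate 4 stood at 18.5 CPM and the other 3 at 6.47, 4.83 and 4.40 CPM. Both mismatch genes were lower in PyMT-M, Msh6 by a log2 change of -0.75 and Pms2, the endonuclease of mismatch repair, by -0.55, and Pms2 in 2208L by -0.64 (18.1, 16.8 and 22.5 against 11.8, 12.9 and 11.98 CPM). Of the end joining genes none of 4 was lower in PyMT-M (Prkdc -0.21) and Xrcc6 was lower in 2208L (-0.58, adjusted p = 0.0188). Of the translesion genes, 1 of 5 was lower in PyMT-M, Primpol (-0.46), and none in 2208L.

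Of the 20 members lower in PyMT-M, 14 had groups that did not overlap. That count was not made over all genes called, so it describes these calls only. Whichever PyMT-M library was left out, 10 of the 20 kept their call. Bard1, Ddb2, Fanca, Fanci, Lig3, Mdc1, Msh6, Primpol, Topbp1 and Xpa lost theirs in at least 1 such fit, for Mdc1 without vehicle replicate 1 alone, and each of the 8 PyMT-M libraries ended at least 1 of these calls when it was left out. With intronic reads added to the spliced reads, Palb2 (-0.30), Msh6 (-0.43) and Pms2 (-0.15) missed the threshold, and Brca1 (-0.77), Brca2 (-1.85), Xpc (-0.70) and Parp2 (-0.86) stayed lower. In 2208L the 8 calls became 3 without vehicle replicate 1 and 1 without vehicle replicate 3, H3B-8800 replicate 1 or H3B-8800 replicate 3.

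In AT3, no member was called at the gene level with edgeR, where 0.3% of all genes were called in either direction. At an unadjusted p under 0.05, 6 members were lower and none higher, and DESeq2 called 2 lower. The median log2 change was -0.22 beside 0 over all genes, and 33 of 47 were negative, beside 6147 of all 13001 genes. With 2 H3B-8800 libraries, replicate 1 and replicate 2 of AT3 parted on some members: Atm read 25.3 and 77.4 CPM and Msh6 110 and 44.6 CPM.

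In T11 as labelled, 6 members were higher and 1 lower in the libraries labelled H3B-8800 (6.66% and 5.07% of all genes), with a median log2 change of 0.23 beside -0.04. Brca2 stood at 5.95, 3.68 and 5.97 CPM under the vehicle label and 13.6, 10.6 and 14.5 CPM under the H3B-8800 label (1.32, SE 0.34, adjusted p = 0.0154). Wrn stood at 6.64, 13.2 and 18.8 CPM against 25.6, 24.6 and 31.6 CPM (1.08), and Mdc1 at 10.2, 22.8 and 19.1 CPM against 37.6, 29.9 and 39.5 CPM (1.03). Lig3 (0.79, adjusted p = 0.00718), Atr (0.71) and Pms2 (0.60) were also higher, and Nbn, a subunit of the Mre11a complex, was lower (84.6, 71.5 and 73.1 against 52.0, 54.7 and 43.1 CPM, -0.61, adjusted p = 0.0132). None of these 7 had overlapping groups, a count that was not made over all genes called. Brca2, Mdc1, Lig3 and Pms2 were lower in PyMT-M and higher in T11 as labelled. The 7 calls ran from 4 without labelled H3B-8800 replicate 3 to 12 without labelled vehicle replicate 1, Lig3 alone of the 6 stayed higher throughout, Brca2 lost its call without labelled vehicle replicate 2 and Wrn and Nbn theirs without labelled H3B-8800 replicate 3, and the count was 2 (Atr and Wrn) without the 6 libraries and 0 when T11 was fitted by itself.

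**Figure D4:**
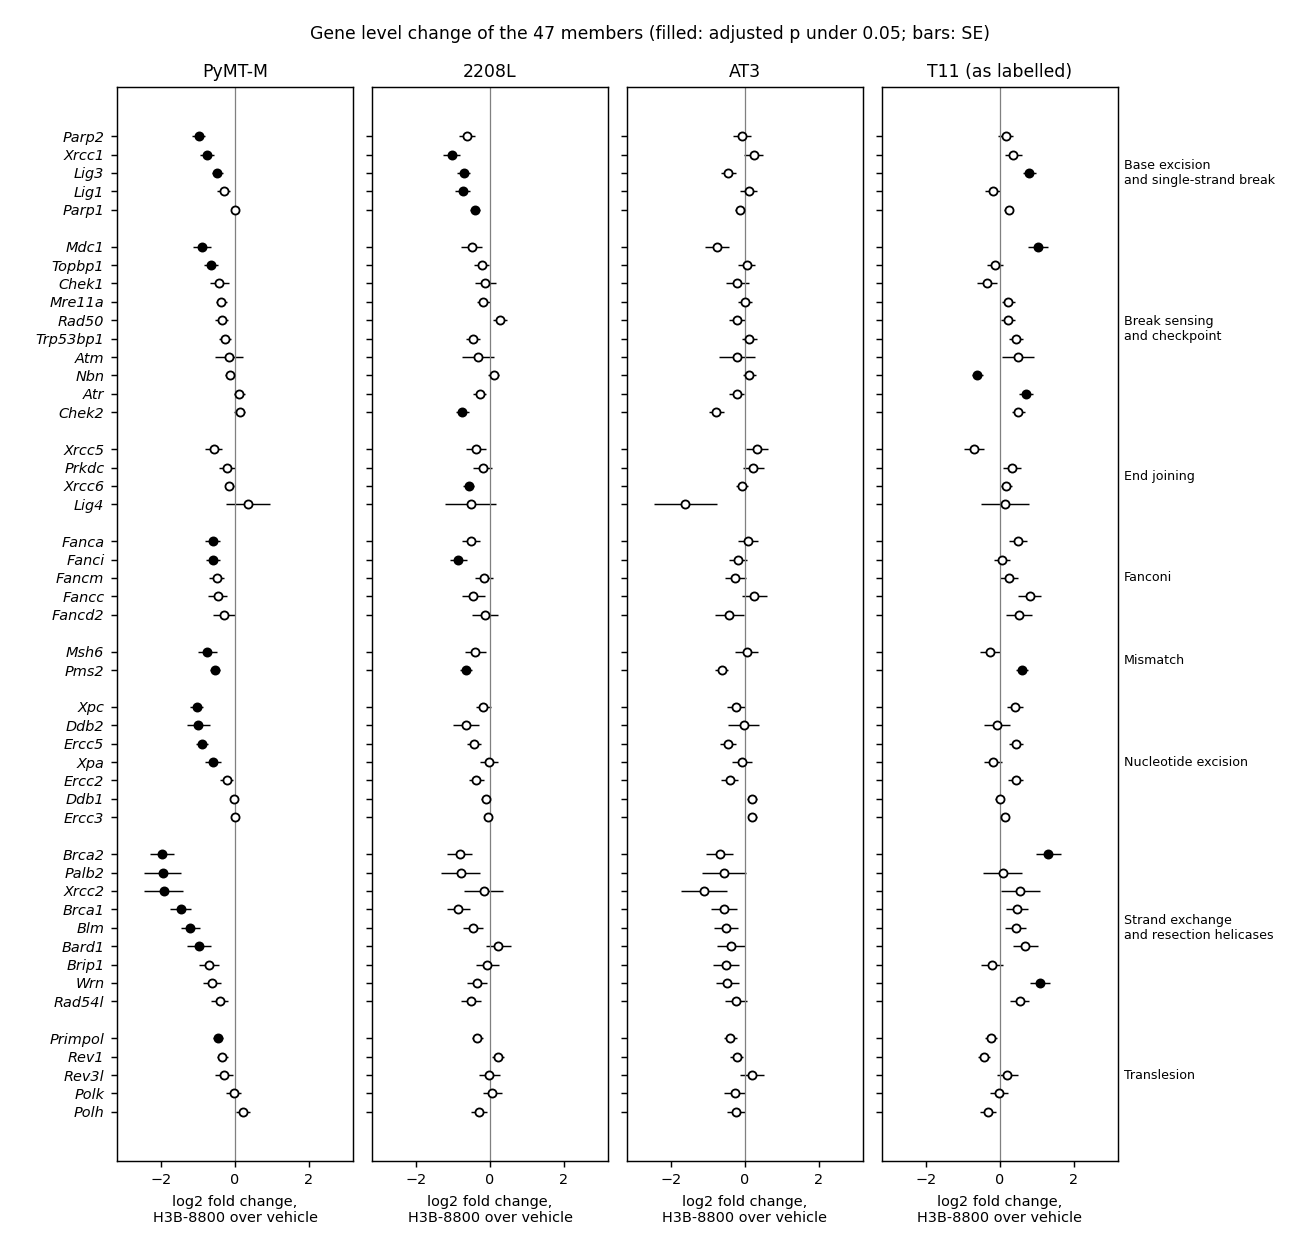
Log2 change of the gene level (CPM of spliced reads, libraries labelled H3B-8800 over vehicle) of all 47 members, grouped by role, in each model. Filled points passed the test (edgeR adjusted p under 0.05), and bars are standard errors. In PyMT-M 43 of 47 points lie below 0, beside 6238 of all 13001 genes, and in T11 the median lies at 0.23.

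The drop in spliced reads and the rise in intronic share were compared gene by gene. Of the 20 members lower in PyMT-M, 17 had a pooled intron value, and 11 of those were called higher in it: Brca1, Palb2, Mdc1, Topbp1, Fanca, Parp2, Lig3, Msh6, Pms2, Xpc and Ercc5. Of the 25 other members with a pooled value, 17 were called higher. In 2208L, 1 of the 8 lower members, Lig3, was higher in its pooled introns, as were 9 of the 34 others. Spearman's rho over the 42 members between the 2 changes was -0.10 in PyMT-M, -0.37 in AT3, -0.00 in 2208L and -0.38 in T11. Spliced reads enter both measures, which alone can give a negative value. Ercc2, Ddb1 and Rev1 showed large intron changes with no call at the gene level, and Brca2, Blm and Xrcc1 were lower in spliced reads with no call in pooled intron reads (Brca2 was not tested there).

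The vehicle tumors of PyMT-M and AT3, both in C57BL/6 mice, differed in most of these genes. Of the 47 members, 30 were lower and 6 higher in PyMT-M (28% and 32.1% of all genes, edgeR adjusted p under 0.05), with a median log2 difference of -0.81 beside 0.08 over all genes. By role, 8 of 9 strand exchange and helicase genes were lower, 6 of 10 break sensing genes, 4 of 5 Fanconi genes, 2 of 4 end joining genes, 3 of 5 base excision genes, both mismatch genes, 2 of 7 nucleotide excision genes and 3 of 5 translesion genes. Fanca, a core Fanconi subunit, had 46.0 ± 12.9 CPM (n = 4) in PyMT-M and 274 ± 24.4 CPM (n = 3) in AT3 (-2.57, adjusted p = 4.96e-09). Its AT3 libraries stood at 256, 302 and 264 CPM, above the 2208L vehicle libraries (24.0 to 31.4 CPM) and the T11 libraries labelled vehicle (19.1 to 37.6 CPM) as well. Fancd2 was lower in PyMT-M by a log2 difference of -2.31 (10.5 ± 1.75 against 52.2 ± 2.56 CPM), Brca2 by -2.25, Chek1 by -2.01, Topbp1 by -1.93, Msh6 by -1.79, Brca1 by -1.78, Prkdc by -1.34, Atr by -1.25 and Parp1 by -0.67. Atm missed the threshold (-0.52, adjusted p = 0.268).

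Lig3 was the member most above AT3 in PyMT-M, at 287 ± 46.3 against 51.5 ± 2.51 CPM (2.48, adjusted p = 1.93e-10). Ddb2 (2.03, 17.1 ± 5.92 against 4.19 ± 1.01 CPM), Ercc2 (1.72, 128 ± 19.0 against 39.0 ± 5.99 CPM), Chek2 (1.70, 81.2 ± 11.3 against 24.9 ± 2.93 CPM) and Ercc5 (1.32) followed, and Trp53bp1, which steers breaks toward end joining, was higher by 0.45 (adjusted p = 0.0366). Trp53bp1 lost its call in 6 of 7 fits that left out 1 library, and Palb2, Parp2 and Rev3l in 2 of 7, while the other 32 kept theirs. The sum of the 15 proliferation genes was 732 to 1333 CPM in PyMT-M and 3399 to 3845 CPM in AT3, 12 of the 15 were lower in PyMT-M with a median of -1.69. Fibroblast markers summed to 1389 to 3956 CPM in PyMT-M and 7028 to 10864 CPM in AT3, macrophage markers to 104 to 292 and 463 to 724 CPM, and the 4 neutrophil markers to 6.88 to 8.53 and 111 to 247 CPM. The part of these in the members' difference was not tested. Without the libraries set apart, 27 members were lower and 5 higher.

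**Figure D5:**
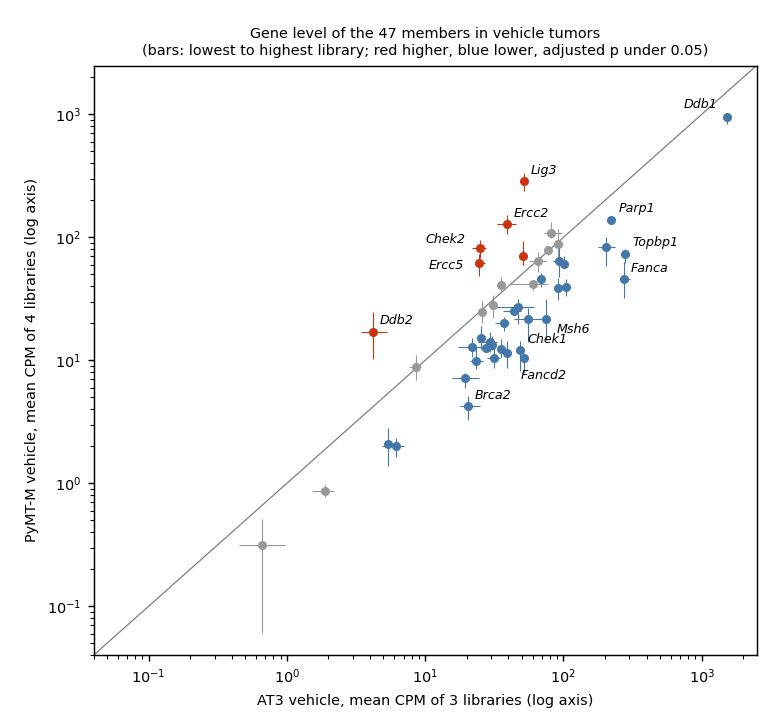
Levels of the 47 members in the vehicle tumors, in CPM of spliced reads on log axes, with AT3 (mean of 3 libraries) across and PyMT-M (mean of 4 libraries) up. Bars run from the lowest to the highest library, red points were called higher in PyMT-M, blue lower and grey neither, and the line marks equal levels. Lig3 lies above the line at 238 to 335 CPM in PyMT-M and 49.2 to 54.2 CPM in AT3, and Fanca below it at 32.4 to 63.0 and 256 to 302 CPM.

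Set per intron junction, so that genes with many introns can be compared with genes with few, Ddb1 had the highest level of the 47, at 46.2 CPM per junction as the mean of the 4 vehicle groups. Parp1 followed at 8.22, Msh6 at 7.72, Xrcc6 at 7.40 and Topbp1 at 7.37 CPM per junction. Lig3, at 6.48, ranged from 1.45 ± 0.0713 in T11 labelled vehicle to 16.9 ± 2.73 CPM per junction in PyMT-M. Brca2 was the lowest at 0.38, after Prkdc at 0.39, Bard1 at 0.47 and Lig4, the ligase of end joining, at 0.50 CPM per junction.

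Other genes of the same pathways were looked at from a list of 95 further repair and checkpoint genes, of which 93 were measured. In PyMT-M 41 were lower and 4 higher (14.6% and 10.2% of all genes), with a median log2 change of -0.54 beside 0.02 over all genes. The largest falls were in Mutyh (-2.42) and Smug1 (-2.12), base excision glycosylases, and Rad1 (-1.98), a subunit of the 9-1-1 checkpoint clamp, and the rises were in Ercc8 (0.79), Rpa1 (0.66), Cetn2 (0.50) and Polb (0.46). In 2208L 15 were lower (5.67% of all genes), led by Smug1 (-1.74), Rad51c (-1.27) and Pms1 (-1.26), and in AT3 none was called (0.3% of all genes). In T11 as labelled 8 were higher, led by Smug1 (3.62), and 5 lower (6.66% and 5.07% of all genes). Between the vehicle tumors, 47 were lower in PyMT-M than in AT3 and 6 higher (28% and 32.1% of all genes). In pooled intron reads 60 of 81 were higher in PyMT-M (63.6% of all genes), 32 in AT3 (34.2%) and 34 in 2208L (32.7%). In T11 as labelled 33 of the 81 were lower (29.9%).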

How the data were processed

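RNA from whole tumors was made into stranded libraries after polyA selection, per the labels' protocols. Reads were aligned with HISAT2 2.0.4, and the builds mm10 and hg38 are named, per the submitters' processing notes. The counting tool and its strand setting are not given in the sources, and neither is the annotation, so overlapping and antisense genes may share reads. The deposited files give, for each of 163337 introns, the count of reads inside it, the count of reads overlapping it and an RPKM, which was not used beyond checking what it holds. The 22 introns without values in some columns were left out. Coordinates are mm10, since 99.9% of introns match GENCODE M21, and give an intron's own first and last base (the files list the flanking exon bases). The labels' design text calls the replicates separate tumors.

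Gene levels (spliced reads summed over introns, at least 1 CPM in at least 2 libraries) were tested with edgeR 4.0.16 in R 4.3.3 (quasi-likelihood, TMM, 8 group means over all 25 libraries, Benjamini-Hochberg over all genes, threshold 0.05). Introns were tested where intronic reads averaged at least 5 and spliced reads at least 10, and pooled introns where intronic reads averaged at least 10. The offset was the log of spliced reads of the gene plus 0.5. A standard error is the log2 change over the root of F. Alternatives used DESeq2 1.42.0, limma 3.58.1 and other filters. The scripts were tested on simulated data.

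Members, gene lists and the rule for naming were chosen with earlier results of these data known. The rule names up to 6 called members per direction with a mean of at least 5 CPM, 8 fixed genes (Brca1, Brca2, Atm, Atr, Chek1, Fancd2, Prkdc, Parp1), up to 10 introns higher in 3 models, 6 lower and 4 with the smallest change. Further called members and introns with a printed sequence were named after their values were seen.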

Additional observations from a re-analysis of the deposited data

Results flagged for a closer look

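In groups of 4 libraries, 12 of 178 sets of member values had a library set apart from the other 3 (Dixon's test, which chance alone meets in about 1 set in 20), all of them in PyMT-M, the only model with groups of that size. At the gene level these were Atm in vehicle replicate 1 (37.0 CPM), Fancd2 in vehicle replicate 3 (7.90 CPM), Pms2 in vehicle replicate 4 (15.8 CPM), Trp53bp1 in vehicle replicate 4 (93.9 CPM), Fancd2 in H3B-8800 replicate 4 (18.5 CPM), Blm in H3B-8800 replicate 4 (8.38 CPM), Wrn in H3B-8800 replicate 3 (18.4 CPM) and Polh in H3B-8800 replicate 2 (20.4 CPM). In pooled percents in introns they were Chek2 in vehicle replicate 4 (27.2%), Lig3 in vehicle replicate 2 (2.73%), Bard1 in H3B-8800 replicate 1 (82.4%) and Palb2 in H3B-8800 replicate 1 (100%, a library with no spliced read of Palb2).

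The change with H3B-8800 differed between PyMT-M and 2208L by the test of the difference itself in 2 members: Chek2 at the gene level (log2 difference 0.88) and Msh6 in pooled intron reads (log2 difference 3.26). Each call was lost in some fits that left out 1 library, as given above.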

How the results depend on the processing

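The replicate numbers did not pair the samples. Correlations of same-numbered H3B-8800 and vehicle libraries' deviations from their group means were 0.0768, 0.0390, 0.369 and 0.103 in PyMT-M, -0.0655 and 0.0559 in AT3, -0.00223, -0.109 and -0.239 in 2208L, and 0.299, -0.364 and -0.257 in T11. With the replicate block, 20 members were called at the gene level in PyMT-M, 0 in AT3, 9 in 2208L, 7 in T11 and 35 between vehicle tumors. The block gave 158, 53, 46 and 62 member introns in PyMT-M, AT3, 2208L and T11, and 28, 10, 13 and 10 members in pooled intron reads.

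At the gene level, the counts of calls in PyMT-M and between vehicle tumors moved by over 1.5 times under 1 of the alternatives run, for PyMT-M: the fit without the 6 libraries set apart within their groups by muscle or B cell markers, which was chosen after the data were seen. It keeps the 3 H3B-8800 libraries of 2208L, which are all high in B cell markers. This fit gave 6 (gene level) and 99 (introns) in PyMT-M, 0, 17 and 5 (gene level, introns, pooled) in 2208L, 2, 30 and 6 in T11, and 0 and 0 for PyMT-M minus 2208L. Asking for 20 intronic reads gave 62 introns in PyMT-M, where fewer introns are tested. Introns with no annotated exon gave 105 in PyMT-M, 39 in 2208L and 40 in T11. DESeq2 gave 2 calls in AT3 and 1 for PyMT-M minus AT3. Fits of 1 model or pair alone gave 6 in AT3 pooled, 19 in 2208L pooled and 0 in T11 at the gene level. The upper quartile over introns gave 5 in 2208L, and overlapping reads 4 in T11. For PyMT-M minus 2208L, the gene level gave 0 without a filter and 0 with overlapping reads, and pooled reads 0 with all introns. Some of these fits hold fewer samples or introns, and the cause of the changed counts was not tested.

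Leaving out 1 library gave 15 to 69 introns and 2 to 21 pooled calls in AT3, and 1 to 7, 24 to 52 and 5 to 10 (gene level, introns, pooled) in 2208L. It gave 4 to 12, 32 to 68 and 3 to 17 in T11, 0 to 2 for PyMT-M minus AT3, and 0 to 4 (gene level) and 0 to 3 (pooled) for PyMT-M minus 2208L.

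Most signs that turned belonged to changes near 0. In PyMT-M, overlapping reads gave Atr -0.12 and Lig3 0.083, the 1 called gene level that turned. Parp1 was 0.0230 with DESeq2, 0.0210 with no filter, 0.10 without the 6 libraries and -0.041 to 0.044 with 1 library out. Without the 6, Fancd2 was 0.17, Ddb1 intron 24 -0.16 and Ercc3 intron 2 -0.43. Xrcc6 intron 11 was 0.078 with limma and 0.0025 with the same intron as offset. With 1 library out, Ddb1 intron 24 ran from -0.23 to 0.31 and Ercc5 intron 14 from -0.35 to 0.15, and in AT3 Atm from -1.25 to 0.37 and Prkdc from -0.12 to 0.51. Prkdc was 0.063 in 2208L with the upper quartile, and Topbp1 pooled, called lower in T11 (-1.04), was 0.016 there with all introns, the 1 called pooled value that turned. For PyMT-M minus AT3, Atm was -0.037 and Chek1 0.090 without the 6, Fancd2 -0.10 with the replicate block, and with 1 library out Atm ran from -0.53 to 1.09 and Fancd2 from -0.58 to 0.34. For PyMT-M minus 2208L, Atm was -0.11 with the upper quartile, Fancd2 0.31 without the 6 and -0.87 to 0.049 with 1 library out. There Prkdc was 0.0023 with DESeq2, 0.020 with no filter, 0.031 with the replicate block, 0.070 without the 6, and -0.16 to 0.10 with 1 library out. Of the single values that were called, over all alternatives, 843 of the gene level kept their call and 175 lost it, 522 and 89 of introns, and 689 and 146 of pooled reads.

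Depth limited the intron tests: 285 of the members' 1002 introns had enough reads to be tested.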
